A study of Mus musculus musculus x Mus musculus castaneus with 12 samples.

Results

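The RNA of chromosome 1 was examined in 2 male *Kdm6a* KO ES cell clones of the CB cross, ΔE2.5 and ΔE2.7, in which 1299 of 24346 measured genes lie on this chromosome. ES cells are pluripotent cells derived from the early embryo. CB cells are F1 hybrids of the mouse strains cast and BL6, with the cast strain as the mother and an X chromosome of cast origin, and they carry SNPs that tell the alleles apart. *Kdm6a* is an X-linked gene for a histone H3 lysine demethylase. ΔE2.5 and ΔE2.7 carry a CRISPR/Cas9 deletion between exons 2 and 4 of *Kdm6a*. They were chosen by that label and compared with 3 controls of the same cross and sex, 2 wt samples (wt 1 and wt 2) and 1 clone with a deletion of the *Kdm6a* promoter region, ΔP2.1. All 5 samples are undifferentiated cells grown on feeder cells with serum and LIF and plated without feeders before use, according to the methods. The CB wt line carries an actin-GFP transgene according to the paper's results. Each KO line is 1 clone, and the 12 samples of the series also include 5 male and 2 female samples of the reciprocal BC cross.

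Whole chromosomes are gained and lost in cultured mouse ES cells, and cells with an extra copy can outgrow their neighbours. Where RNA follows gene copy number, 1 more copy beside 2 gives 1.5 times the RNA, on a log2 scale 0.58, and all of the increase comes from the allele that was gained. Genes that stay at the control level in spite of an extra copy are called buffered or dosage-compensated, and changes of genes on other chromosomes are called changes in trans. DNA copy number was not measured here, so all values are RNA levels.

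The guides of the exonic deletion are shown because they define both clones, with the PAM in capitals:
ΔE Left: gaaacctcacgaacccgaaaAGG
ΔE Right: tagcattatctgcataccagAGG
The left guide matched exon 2 of *Kdm6a* at chrX:18163390-18163409 (GRCm38, minus strand of the genome, *Kdm6a* being on the plus strand). The right guide was not found in an annotated transcript of *Kdm6a* and was not placed. Neither guide was searched for on chromosome 1.

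The level of *Kdm6a* was checked first. It was 51.04 and 51.7 TPM (a level per transcript length and library total) in wt 1 and wt 2, 2.07 in ΔE2.5, 7.28 in ΔE2.7 and 0.0364 in ΔP2.1, so all 3 clones were below both wt samples. *Uty*, the Y-linked relative of *Kdm6a*, was at 21.4 and 20.8 TPM in wt, 15.7 in ΔE2.5, 14.4 in ΔE2.7 and 18.6 in ΔP2.1. *Eif2s3y*, a Y-linked translation factor gene, was at 46.4 and 46.7 TPM in wt and at 0.902, 5.64 and 5.42 in ΔE2.5, ΔE2.7 and ΔP2.1. All 3 edited clones were below both wt samples for *Eif2s3y*, the control clone ΔP2.1 among them.

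The samples held 49975599 to 53407103 fragments. The 2 wt samples were unusually alike. Their counts differed by a median chi-square of 0.715 per gene over 14070 genes, where sampling alone gives 0.455, and the other 4 pairs of samples in the series gave 2.09 to 18.04. According to the methods, the wt libraries are biological replicates, but the labels name no cultures, so p-values may measure a technical spread on the control side. ΔP2.1 stood apart in its alleles. Of 605 chromosome 1 genes with at least 20 SNP fragments in each sample, 23 had a BL6 share under 10% in ΔP2.1 and of at least 25% in both wt samples, 10 of them between chr1:171127165 and chr1:173367695. On other autosomes 81 of 9637 genes had the same pattern in ΔP2.1. Over all autosomes 4 genes had it in ΔE2.5 and 1 in ΔE2.7. The chromosome 1 median changes and the counts called for total level and for allele balance are therefore given with and without ΔP2.1 below. Values of single genes are against all controls unless stated.

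Chromosome 1 RNA was more abundant in both exonic clones than in every control. It made up 8.93% of autosomal fragments in ΔE2.5 and 8.70% in ΔE2.7, but 6.34% and 6.38% in wt 1 and wt 2 and 6.22% in ΔP2.1. The means were 8.81% ± 0.16 (SD, n = 2) and 6.31% ± 0.084 (SD, n = 3), a ratio of 1.40. With 2 samples against 3 the exact permutation test cannot go below p = 0.2 (two-sided), and p was 0.2. The median log2 difference of the 755 tested chromosome 1 genes from the control mean, relative to other autosomes, was 0.51 in ΔE2.5 and 0.46 in ΔE2.7. The controls were at 0.015, 0.032 and -0.048, so the clones and the controls did not overlap.

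**Figure D1:**
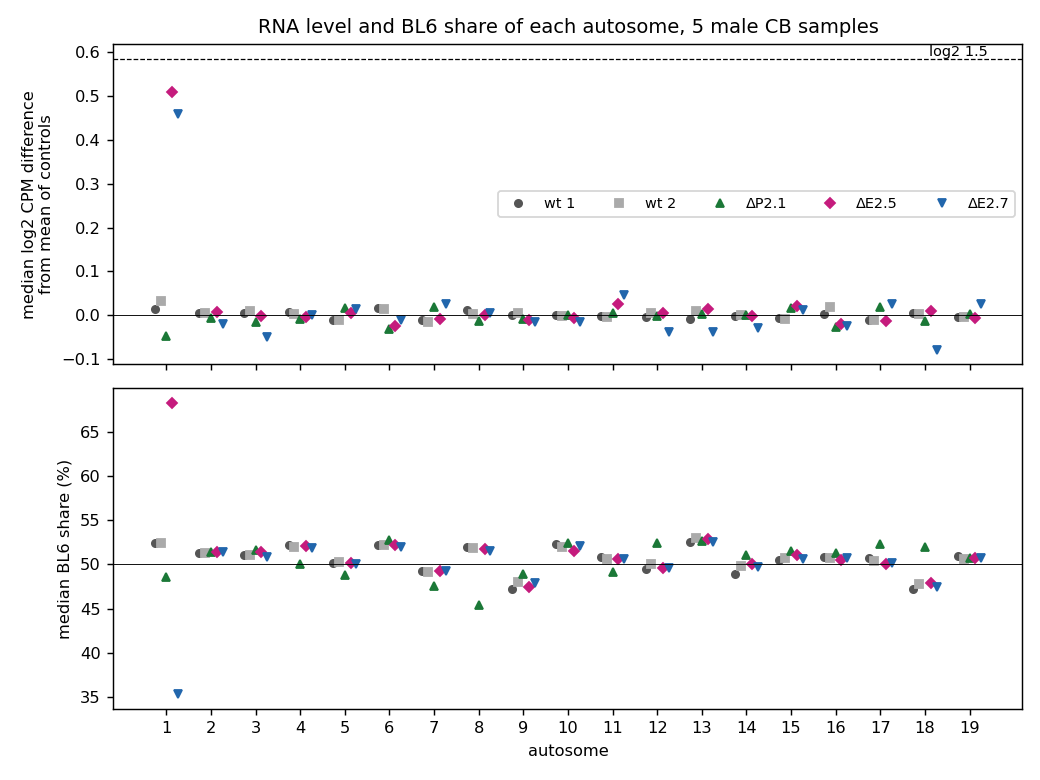
Median log2 difference in CPM from the mean of the 3 controls, relative to all other autosomes (top), and median BL6 share in percent (bottom), for each autosome and each of the 5 male CB samples. On chromosome 1 the exonic clones ΔE2.5 and ΔE2.7 lie at 0.51 and 0.46 in the top panel and at 68.3% and 35.3% in the bottom panel. The dashed line marks 1.5-fold.

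No other autosome showed such a shift. The medians of the 18 other autosomes were between -0.023 and 0.025 in ΔE2.5 and between -0.079 and 0.045 in ΔE2.7. Their median BL6 shares were between 47.5% and 52.8% in ΔE2.5 and between 47.5% and 52.5% in ΔE2.7.

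The 2 clones differed in which allele was more abundant. The median BL6 share of chromosome 1 genes was 52.5% and 52.4% in wt 1 and wt 2 and 48.6% in ΔP2.1. It was 68.3% in ΔE2.5, above all controls, and 35.3% in ΔE2.7, below all controls. The shift ran along the whole chromosome. In 19 blocks of 10 Mb with at least 8 genes, the median BL6 share was between 64.2% and 75.4% in ΔE2.5 and between 32.3% and 44.2% in ΔE2.7. The wt samples were between 49.7% and 66.7% in these blocks. ΔP2.1 was between 28.9% and 55.9%, with its lowest value in the block that holds the 10 genes with few BL6 fragments. The median total change per block, relative to other autosomes, was between 0.18 and 0.61 on the log2 scale.

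**Figure D2:**
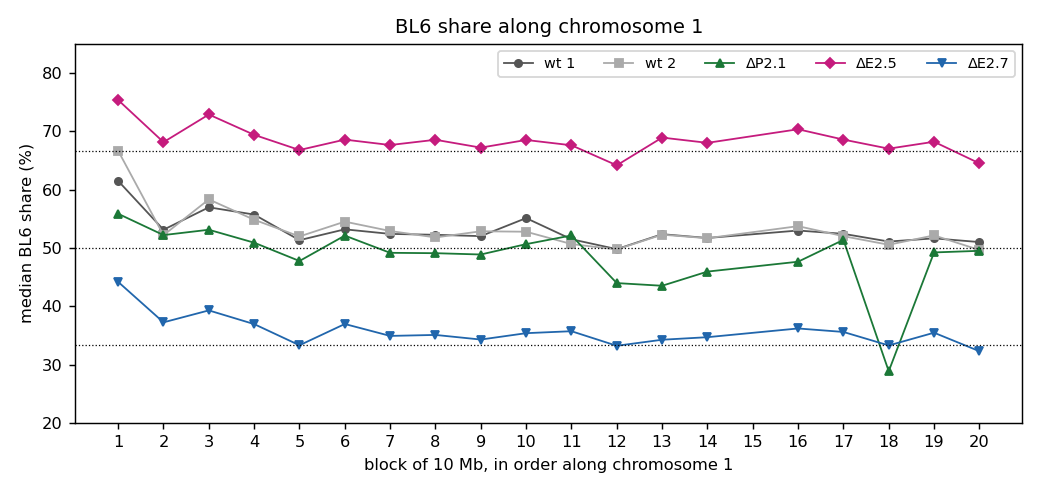
Median BL6 share in percent of genes in consecutive blocks of 10 Mb along chromosome 1, for blocks with at least 8 genes, in the 5 male CB samples. ΔE2.5 stays at 64.2% or more and ΔE2.7 at 44.2% or less, and ΔP2.1 falls to 28.9% in 1 block. Dotted lines mark BL6 to cast ratios of 1:2, 1:1 and 2:1.

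Each allele was then compared with the controls on its own. BL6 fragments of chromosome 1 genes were 1.95-fold higher at the median in ΔE2.5 (678 genes, log2 0.96 relative to other autosomes), while cast fragments were at 0.933-fold (661 genes, log2 -0.10). In ΔE2.7 the alleles were reversed, with cast fragments at 1.83-fold (log2 0.87) and BL6 fragments at 0.995-fold (log2 -0.0077). BL6 fragments were higher for 629 of 678 genes in ΔE2.5, and cast fragments for 620 of 661 genes in ΔE2.7. For the other allele, 253 of 661 cast values in ΔE2.5 and 334 of 678 BL6 values in ΔE2.7 were higher. Without ΔP2.1 among the controls the medians were 0.88 for BL6 and -0.051 for cast in ΔE2.5 and -0.12 for BL6 and 0.91 for cast in ΔE2.7.

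**Figure D3:**
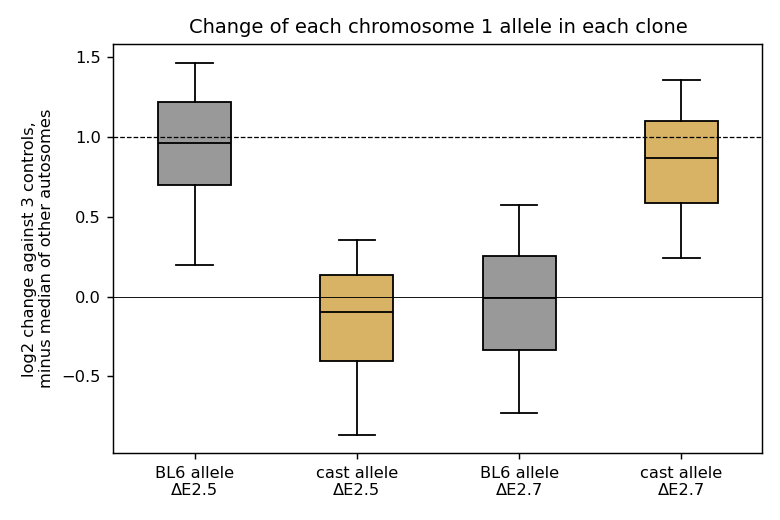
Log2 change of BL6 and cast SNP fragments of chromosome 1 genes in each exonic clone against the 3 controls, minus the median of the other autosomes. Boxes show quartiles with the median and whiskers the 10th to 90th percentile of genes, 678 for BL6 and 661 for cast, and the dashed line marks a log2 change of 1. Medians are 0.96 and -0.10 in ΔE2.5 and -0.0077 and 0.87 in ΔE2.7.

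In edgeR fits of each allele the tested arm was 1 clone against 3 controls, 2 of them the nearly alike wt samples. The spread therefore came from the controls alone, and the calls compare these libraries, not replicated conditions. At an FDR under 0.05, cast fragments were called higher in ΔE2.7 for 130 of 661 chromosome 1 genes and for 22 of 10761 genes on other autosomes, against 1.33% of all genes tested. None was called lower on chromosome 1, where 2 had an unadjusted p under 0.05, and 0.289% of all genes were called lower. BL6 fragments gave 0 calls in ΔE2.5 in either direction (0% of all genes), with 401 chromosome 1 genes higher at an unadjusted p under 0.05 and 7 lower. In ΔE2.7 they also gave 0 calls (0%), with 32 higher and 49 lower at an unadjusted p under 0.05. Cast fragments in ΔE2.5 were called lower for 1 chromosome 1 gene and higher for 0, against 0.219% and 0.0175% of all genes, with 86 lower and 15 higher unadjusted.

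The allele balance was compared between the clones directly. The BL6 to cast ratio was higher in ΔE2.5 than in ΔE2.7 for 602 of 605 chromosome 1 genes, with a median log2 difference of 1.91, and for 3877 of 9637 genes on other autosomes, with a median of -0.060. Each side of this comparison is 1 sample, so it compares the 2 libraries, and the spread in its edgeR fit came from the controls alone. With that spread 142 chromosome 1 genes, all in that direction, and 3 genes elsewhere had an FDR under 0.05, or 1.42% of all genes tested. The count was 550 on chromosome 1 without ΔP2.1. It was 0 without wt 1, without wt 2 or with both averaged, and with both averaged 425 genes had an unadjusted p under 0.05.

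The 6 chromosome 1 genes with the most SNP fragments show this in numbers. *Parp1*, which encodes a poly(ADP-ribose) polymerase of DNA repair (chr1:180568924-180601254), had 5547, 5824 and 5874 BL6 fragments in wt 1, wt 2 and ΔP2.1, 11946 in ΔE2.5 and 5983 in ΔE2.7. Its cast fragments were 5230, 5080 and 5364 in the controls, 5251 in ΔE2.5 and 10595 in ΔE2.7. The allele of *Parp1* with about 2 times the fragments of the controls was BL6 in ΔE2.5 and cast in ΔE2.7.

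*Ncl*, the gene of the nucleolar protein nucleolin, had 11433, 11322 and 12158 BL6 fragments in the controls, 29085 in ΔE2.5 and 12218 in ΔE2.7, and 10815, 11104 and 12597 cast fragments in the controls, 14251 in ΔE2.5 and 23421 in ΔE2.7. *Atic*, of purine synthesis, had 4391, 4401 and 4681 BL6 fragments in the controls, 10348 in ΔE2.5 and 4051 in ΔE2.7, and 4183, 3987 and 4590 cast fragments in the controls, 4605 in ΔE2.5 and 7581 in ΔE2.7. Both had the same pattern, with the cast fragments of *Ncl* in ΔE2.5 above the controls too. *Eef1b2*, a translation elongation factor gene, had 6094, 5939 and 6076 BL6 fragments in the controls, 13162 in ΔE2.5 and 7323 in ΔE2.7, with 6076, 5725 and 6300 cast fragments in the controls, 6763 in ΔE2.5 and 15804 in ΔE2.7. *Mcm3*, of the replicative helicase, had 4359, 4254 and 3321 BL6 fragments in the controls, 11125 in ΔE2.5 and 5418 in ΔE2.7, and its cast fragments were 4632, 4674 and 6947 in the controls, 5956 in ΔE2.5 and 11851 in ΔE2.7. For *Mcm3* the control ΔP2.1 had fewer BL6 and more cast fragments than wt.

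*Fn1*, the gene of the matrix protein fibronectin, was the exception among the 6. Its BL6 fragments were 11870, 11533 and 9354 in the controls, 10230 in ΔE2.5 and 9213 in ΔE2.7. Its cast fragments were 12358, 11636 and 10020 in the controls, 4387 in ΔE2.5 and 19141 in ΔE2.7. The BL6 to cast ratio of *Fn1* was higher in ΔE2.5 than in ΔE2.7 by 2.22 on the log2 scale, a value from 1 library each, and in ΔE2.5 neither allele was above the highest control.

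Genes of chromosome 1 were then tested one by one for total level. Of 755 tested genes, 669 (88.6%) were higher in the exonic clones, and 493 (65.3%) had both clones above all 3 controls, against 1634 of 12084 (13.5%) on other autosomes. Both clones were below all controls for 30 chromosome 1 genes (3.97%) and for 3193 genes elsewhere (26.4%). Both of these positions were read from TPM, a share of the library total. A larger chromosome 1 share therefore lowers the TPM of other genes. By the fitted change, normalized with TMM, 49.0% of genes elsewhere were higher. The median change was 0.53 on the log2 scale relative to other autosomes (1.44-fold), and the middle 50% of the chromosome 1 genes lay between 0.30 and 0.72, where that of other autosomal genes lay between -0.21 and 0.16. In the edgeR quasi-likelihood test 241 chromosome 1 genes (31.9%) were called higher and 2 lower at an FDR under 0.05, with 2.54% of all genes tested called higher and 2.8% lower. With a fold change of at least 1.5 as a further condition, 169 were called higher and 2 lower, against 1.75% and 2.17% of all genes.

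These calls rest on wt 1 and wt 2 as separate samples. No chromosome 1 gene was called when wt 1, wt 2 or ΔE2.5 was left out or when wt 1 and wt 2 were averaged, with 405 to 417 higher at an unadjusted p under 0.05 in each of these fits. Without ΔE2.7 115 genes were called higher, and DESeq2 called 373 in all 5 samples. Without ΔP2.1 295 were called higher, with a median change of 0.50. The median change was between 0.48 and 0.54 with wt averaged and without each of wt 1, wt 2 and ΔE2.5. Calls of single genes below stand under the same condition.

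**Figure D4:**
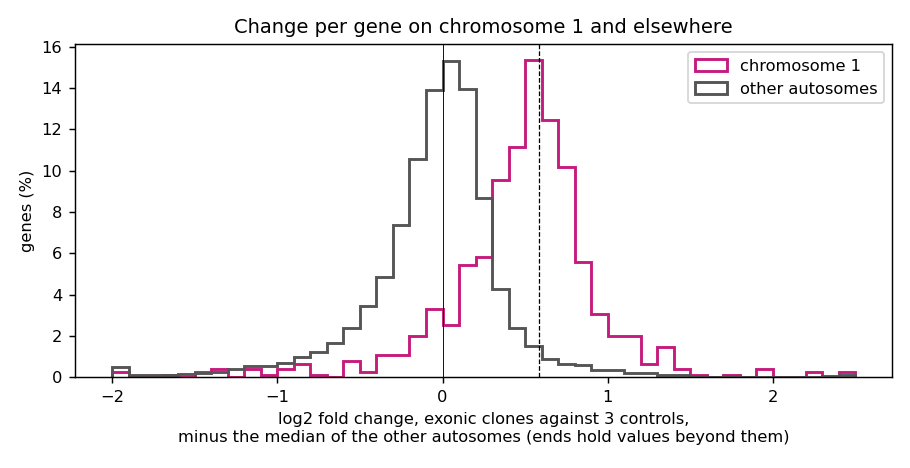
Percent of genes by log2 fold change, exonic clones against the 3 controls, minus the median of other autosomes, for 755 chromosome 1 genes and 12084 genes on other autosomes. The chromosome 1 distribution has its median at 0.53, close to the dashed line at 1.5-fold. End bins hold all values beyond them.

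Median changes were above 0 at all 5 expression levels. Relative to other autosomes they were 0.56 for 139 genes with a mean under 3 TPM, 0.42 for 120 genes from 3 to 10 TPM, 0.52 for 172 genes from 10 to 30, 0.53 for 192 genes from 30 to 100 and 0.57 for 132 genes from 100 TPM. The middle 50% of values was wider in the lowest class, from 0.057 to 0.93, than in the highest, from 0.41 to 0.72.

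The 8 called genes with the largest increase were 2.01-fold to 2.699-fold higher in the exonic clones. *Gas5*, a long non-coding RNA that hosts snoRNAs (chr1:161034422-161038539), was at 137, 139 and 182 TPM in wt 1, wt 2 and ΔP2.1 and at 415 and 377 TPM in ΔE2.5 and ΔE2.7 (log2 1.43, SE 0.16, FDR 0.019). *Fam178b* was at 10.9, 11.2 and 9.98 TPM in the controls and at 25.0 and 28.3 TPM in the clones (log2 1.38, SE 0.12, FDR 0.018). *Chst10*, a carbohydrate sulfotransferase gene, was at 8.91, 8.37 and 8.85 TPM in the controls and at 23.7 and 18.8 TPM in the clones (log2 1.35, SE 0.14, FDR 0.018). Genes were chosen here with both clones above all controls, so the lack of overlap follows from the choice.

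*Glul*, the glutamine synthetase gene (chr1:153899944-153909723), was at 168, 167 and 214 TPM in the controls and at 449 and 348 TPM in ΔE2.5 and ΔE2.7 (log2 1.18, SE 0.17, FDR 0.023). *Npl*, an enzyme gene of sialic acid breakdown, was at 9.77, 10.3 and 9.47 TPM in the controls and at 18.4 and 26.2 TPM in the clones (log2 1.24, SE 0.18, FDR 0.024). *Glul* was higher in ΔE2.5 and *Npl* in ΔE2.7. *Tuba4a*, an alpha-tubulin gene, was at 245, 236 and 233 TPM in the controls and at 476 and 490 TPM in the clones (log2 1.08, SE 0.073, FDR 0.0097). *Apoa2*, an apolipoprotein gene, rose from 42.9, 42.7 and 31.8 TPM to 78.8 and 82.7 (log2 1.11), and *Dbi*, which encodes an acyl-CoA-binding protein, from 375, 364.7 and 240 TPM to 572 and 680 (log2 1.01).

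**Figure D5:**
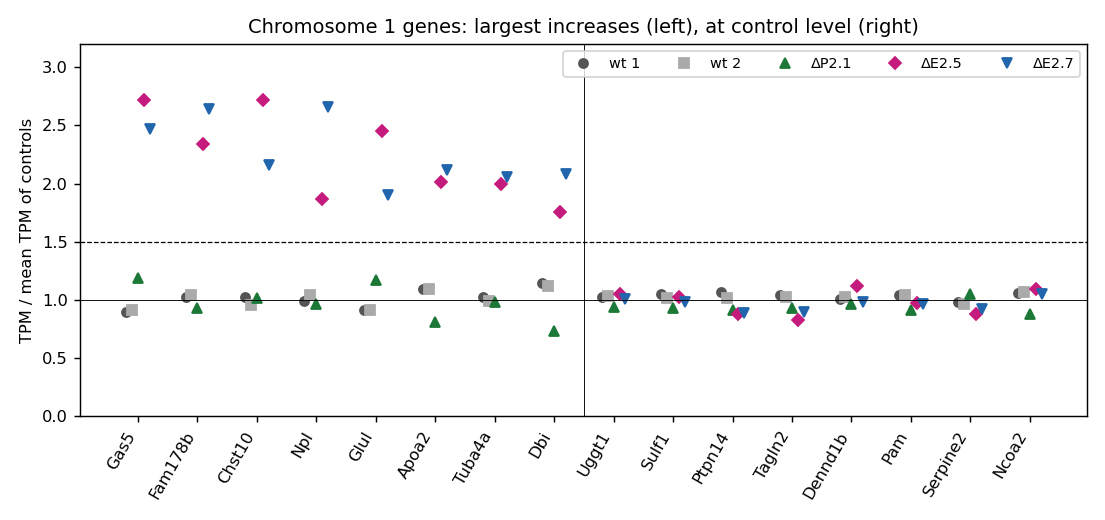
TPM of 16 chromosome 1 genes in the 5 male CB samples, each divided by the mean of the 3 controls: the 8 called genes with the largest increase (left) and the 8 genes at control level with the narrowest interval (right). The dashed line marks 1.5. The 2 exonic clones sit above 1.5 for all 8 genes on the left, and among the 3 controls on the right or close to them.

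Most tested genes of the replication, translation, protein folding and metabolism lists on chromosome 1 rose. Their counts are set beside values over all tested chromosome 1 genes. These were 31.9% called higher, 65.3% with both clones above all controls and a median of 0.53. They cover genes of all expression levels, and the lists were not matched to them by level. Of 11 DNA replication and repair genes 9 were called higher and all 11 were above all controls, with a median of 0.69. *Mcm3* was at 471, 462 and 561 TPM in the controls and at 843 and 868 TPM in the clones (log2 0.84, FDR 0.024). *Mcm6* was at 313, 311 and 325 TPM in the controls and at 533 and 536 TPM in the clones (log2 0.82, FDR 0.018). *Xrcc5*, the gene of a Ku subunit of double-strand break repair, was at 166, 170 and 177 TPM in the controls and at 307 and 268 TPM in the clones (log2 0.81, FDR 0.019). *Parp1* rose from 533, 533 and 564 TPM to 798 and 804 (log2 0.62, FDR 0.022).

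Of 13 translation and ribosome biogenesis genes 9 were called higher, with a median of 0.60, and all 13 were above all controls. *Eef1b2* was at 1659, 1609 and 1748 TPM in the controls and at 2456 and 2934 TPM in the clones (log2 0.75, FDR 0.025). *Ncl* was at 1283, 1301 and 1446 TPM in the controls and at 2399 and 1941 TPM in the clones (log2 0.75, FDR 0.032). The ribosomal protein genes *Rpl7* (log2 0.77, FDR 0.018) and *Rpl37a* (log2 0.87, FDR 0.022) rose as well. Ribosomal protein genes have near-identical copies elsewhere in the genome, so their values are uncertain.

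Of 14 protein folding and degradation genes 9 were called higher, with a median of 0.56, and all 14 were above all controls. *Hspd1*, the mitochondrial chaperonin gene, was at 783, 795 and 831 TPM in the controls and at 1331 and 1066 TPM in the clones (log2 0.64, FDR 0.036), and its partner *Hspe1* at 429, 423 and 439 TPM and at 694 and 567 TPM (log2 0.61, FDR 0.031). Of 13 tested energy and nucleotide metabolism genes 10 were called higher, with a median of 0.62. Of 11 mitosis genes 5 were called higher, with a median of 0.48. The kinase gene *Nek2* rose from 106, 103 and 110 TPM to 164 and 184 (log2 0.77, FDR 0.021), and *Cenpf*, a kinetochore gene, from 58.2, 57.1 and 54.0 TPM to 73.1 and 76.8 (log2 0.47, FDR 0.026).

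Fewer genes passed the test in 4 further lists, and the difference between lists was not tested. Of 9 tested pluripotency and early lineage genes 0 were called by edgeR and 1 by DESeq2, with 3 higher and 1 lower at an unadjusted p under 0.05 and a median of 0.34. The Nodal antagonist genes *Lefty1* and *Lefty2* differed between the clones and overlapped with the controls. *Lefty1* was at 297, 291 and 171 TPM in wt 1, wt 2 and ΔP2.1 and at 219 and 492 TPM in ΔE2.5 and ΔE2.7, and *Lefty2* at 267, 262 and 75.9 TPM and at 79.1 and 229 TPM. Of 13 signalling genes 1 was called higher, with a median of 0.45. This was the Wnt receptor gene *Fzd7*, at 100, 102 and 97.8 TPM in the controls and at 214 and 169 TPM in the clones (log2 1.00, FDR 0.019). Of 9 p53 pathway and apoptosis genes 2 were called higher, *Bok* (log2 0.51, FDR 0.044) and *Trp53bp2* (log2 0.61, FDR 0.022), with a median of 0.17. *Phlda3*, a p53 target, was at 197, 194 and 206 TPM in the controls and at 192 and 224 TPM in the clones, which overlapped. Of 2 imprinted genes 0 were called by edgeR and 1 by DESeq2, with 1 higher at an unadjusted p under 0.05 and a median of 0.27, and *Zdbf2* was at 34.1, 33.2 and 29.8 TPM in the controls and at 43.7 and 35.5 TPM in the clones.

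Subunits of a complex that are encoded on chromosome 1 rose while their partners on other chromosomes were not called against the 3 controls. The MCM2-7 helicase unwinds DNA at replication forks. Its chromosome 1 subunits *Mcm3* and *Mcm6* rose by 0.84 and 0.82 on the log2 scale, and *Mcm2*, *Mcm4*, *Mcm5* and *Mcm7* were at 0.19, 0.14, 0.17 and 0.25. Both clones were above all controls for *Mcm4* and *Mcm7*, and above both wt samples for *Mcm2* and *Mcm5*. Against wt alone *Mcm2*, *Mcm5* and *Mcm7* were called higher too. In the COP9 signalosome, which regulates ubiquitin ligases, *Cops5*, *Cops7b* and *Cops8* on chromosome 1 rose by 0.59, 0.62 and 0.65, and the other 6 subunits were between -0.13 and 0.15. In succinate dehydrogenase *Sdhc* rose by 0.72, and *Sdha*, *Sdhb* and *Sdhd* were at 0.16, 0.21 and -0.019. Both clones were above all controls for 3 of these 4 genes and below for 1. Of the respiratory complex I list, the chromosome 1 genes *Ndufs1*, *Ndufa10* and *Ndufb3* rose by 0.55, 0.66 and 0.78, and the 5 genes on other chromosomes were between 0.0086 and 0.19. The difference between subunits was not tested.

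A minority of chromosome 1 genes stayed at the level of the controls. Genes with a mean of at least 10 TPM were sorted by the 95% interval of their change relative to other autosomes. Of 496 chromosome 1 genes, 51 (10.3%) had an interval that held 0 but not 1.5-fold, 27 (5.44%) lay between the 2 values, 334 (67.3%) held 1.5-fold but not 0, and 25 (5.04%) lay above 1.5-fold. Another 3 genes (0.605%) lay below 0, and 56 (11.3%) held both values and were undetermined. On other autosomes 5775 of 8140 genes (70.9%) were at control level and 341 (4.19%) held 1.5-fold but not 0. These classes describe the fit and were not tested. Whether the genes at control level are buffered was not tested either. Fibroblast markers were lower in the exonic clones, and a part of fibroblasts in this class was not tested. With a mean of at least 30 TPM 25 genes were at control level.

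The 8 genes at control level with the narrowest interval have varied functions. *Uggt1*, the gene of a folding sensor of the endoplasmic reticulum (chr1:36140027-36244720), was at 56.7, 57.0 and 51.7 TPM in the controls and at 57.9 and 55.6 TPM in ΔE2.5 and ΔE2.7. *Sulf1*, which encodes a heparan sulfate sulfatase, was at 66.2, 64.3 and 58.4 TPM in the controls and at 64.5 and 62.1 TPM in the clones. The upper limits of their 95% intervals were 0.28 and 0.25. The class itself requires a limit below the log2 value of 1.5-fold, 0.58. *Pam*, for peptide amidation, was at 21.6, 21.6 and 18.9 TPM in the controls and at 20.1 and 20.04 TPM in the clones. *Ncoa2*, a nuclear receptor coactivator gene, was at 23.9, 24.1 and 19.9 TPM in the controls and at 24.8 and 23.9 TPM in the clones. The other 4 were *Ptpn14*, *Tagln2*, *Dennd1b* and *Serpine2*, with changes between -0.15 and 0.13. For *Ptpn14*, *Tagln2* and *Serpine2* both clones were below all 3 controls in TPM.

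Both alleles contributed to the RNA of the 51 genes. Since total level chose these genes, their allelic values are a description. In ΔE2.5 the median change was 0.49 for BL6 and -0.49 for cast fragments, and in ΔE2.7 -0.43 for BL6 and 0.47 for cast. For the 334 genes that held 1.5-fold it was 1.10 for BL6 and 0.0023 for cast in ΔE2.5 and 0.11 for BL6 and 0.97 for cast in ΔE2.7. In each clone 1 allele was thus higher and the other lower at the median of the 51 genes. *Uggt1* had 1318, 1320 and 1131 BL6 fragments in the controls and 1875 in ΔE2.5, and 1224, 1177 and 1077 cast fragments in the controls and 914 in ΔE2.5. In ΔE2.7 it had 950 BL6 and 1631 cast fragments. *Sulf1* had 967, 863 and 858 BL6 fragments in the controls and 1427 in ΔE2.5, and 981, 878 and 783 cast fragments in the controls and 546 in ΔE2.5, with 635 BL6 and 1158 cast fragments in ΔE2.7.

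Fibroblast markers moved with the groups. Of the 10 listed markers 9 were tested, 8 were below all 3 controls in both clones, where 26.4% of the genes on other autosomes were, and none was at 0 in all samples. *Col1a2* (FDR 0.026) and *Dcn* (FDR 0.023), which encode a collagen and the proteoglycan decorin, were called lower by edgeR, with 2.8% of all genes tested called lower. The summed level of all 10 listed markers was 793, 777 and 1105 TPM in wt 1, wt 2 and ΔP2.1 and 83.0 and 305 TPM in ΔE2.5 and ΔE2.7. *Col1a1*, another collagen gene, was at 56.3, 52.1 and 102 TPM in the controls and at 7.54 and 19.9 TPM in the clones, and was not called (FDR 0.063). Most SNP fragments of *Col1a1* carried the cast allele, with a BL6 share of 20.8%, 25.0%, 24.5%, 23.9% and 25.1% in wt 1, wt 2, ΔE2.5, ΔE2.7 and ΔP2.1. That of *Acta2*, a smooth muscle actin gene, was 35.7% to 40.4%. The part of fibroblasts in the results was not tested, and in bulk RNA fewer cells of a type and less RNA per cell cannot be told apart.

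The 2 chromosome 1 genes that were called lower are *Col5a2*, a fibrillar collagen gene, and *Lmod1*, a smooth muscle leiomodin gene. *Col5a2* was at 7.21, 7.44 and 11.8 TPM in the controls and at 1.33 and 2.63 TPM in the clones (log2 -2.097, SE 0.36, FDR 0.038). *Lmod1* was at 5.73, 5.97 and 5.07 TPM in the controls and at 1.32 and 2.098 TPM in the clones (log2 -1.65, SE 0.23, FDR 0.024). Both clones were below all controls for each gene, as they were for 8 of the fibroblast markers.

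Changes in trans leaned toward lower levels. Of 12084 genes on other autosomes, 92 (0.761%) were called higher and 355 (2.94%) lower, and with a fold change of at least 1.5 59 and 275. The calls were spread over the chromosomes, with 1 to 15 higher and 7 to 41 lower on each of the 18. Without ΔP2.1 500 were called higher and 903 lower. No more than 2 were called in either direction without wt 1, wt 2 or ΔE2.5 or with wt 1 and wt 2 averaged. The chromosome 1 level and the exonic deletion coincide in these samples, so their parts in the changes on other autosomes cannot be told apart.

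*Egr1*, an immediate early transcription factor gene on chromosome 18, had the largest increase among the named genes in trans. It was at 16.3, 14.9 and 29.8 TPM in the controls and at 74.1 and 119 TPM in ΔE2.5 and ΔE2.7 (log2 2.30, SE 0.36, FDR 0.027). *Gfpt2*, of hexosamine synthesis, was at 48.8, 47.7 and 65.9 TPM in the controls and at 115 and 113 TPM in the clones (log2 1.13, SE 0.17, FDR 0.024). *Snhg8*, a snoRNA host transcript, was at 28.2, 27.1 and 30.5 TPM in the controls and at 56.9 and 54.1 TPM in the clones (log2 1.02, SE 0.13, FDR 0.022). These genes too were chosen with both clones above all controls. *Gstt1*, *Chac1*, *Eef2k*, *Slc9a5* and *Kif26a* rose by 0.93 to 1.34 on the log2 scale. *Gstt1* and *Chac1* encode enzymes of glutathione metabolism and *Eef2k* a kinase of an elongation factor.

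Genes with large decreases in trans mostly encode secreted or surface proteins. *Thbs1*, the thrombospondin gene, was at 245, 240 and 262 TPM in the controls and at 42.0 and 81.1 TPM in the clones (log2 -1.95, SE 0.26, FDR 0.023). *Crim1*, which binds BMPs, was at 22.0, 22.3 and 22.6 TPM in the controls and at 5.78 and 8.09 TPM in the clones (log2 -1.62, SE 0.15, FDR 0.018). *Igfbp7*, *Emp1*, *Vgf*, *Tinagl1* and *Axl* fell by 1.67 to 2.02 on the log2 scale. Fibroblast markers were lower in the same clones, and a part of fibroblasts in these decreases was not tested. The summed TPM of 12 naive pluripotency markers was 5669, 5608 and 5936 in the controls and 5883 and 6934 in the clones, and 0 of these were called by edgeR and 2 by DESeq2, with 3 higher at an unadjusted p under 0.05.

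Stress and protein quality control genes on other autosomes showed few calls, read against 0.761% higher and 2.94% lower over other autosomes. By edgeR 0 of 16 heat shock and chaperone genes, 0 of 30 proteasome genes and 0 of 9 tested interferon genes were called, with medians of -0.062, 0.16 and 0.11. At an unadjusted p under 0.05, 3 heat shock and chaperone genes were lower, 5 proteasome genes higher and 1 interferon gene higher, and DESeq2 called 2, 0 and 0 of these lists. Among the 30 proteasome genes both clones were above all controls for 15 and below for 2. On other autosomes 13.5% of genes were above and 26.4% below. Of 21 tested genes of the integrated stress and unfolded protein responses *Chac1* was called higher (log2 1.21, FDR 0.0498) and none lower, with a median of 0.20. Unadjusted, 8 were higher and 0 lower at a p under 0.05, and DESeq2 called 2 higher. For 8 of the 21 both clones were above all controls and for 2 below. *Atf4*, the central factor of the integrated stress response, was at 481, 472 and 487 TPM in the controls and at 525 and 572 TPM in the clones (log2 0.25, FDR 0.14). The median over 19 cholesterol synthesis genes was -0.041.

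Of 21 p53 target genes 3 were called lower and none higher, with a median of -0.21 and 13 below all 3 controls in both clones. Over all genes on other autosomes 2.94% were called lower and 26.4% were below all controls. *Plk2*, a kinase gene, was at 172, 174 and 211 TPM in the controls and at 81.1 and 77.8 TPM in the clones (log2 -1.17, FDR 0.019). *Perp*, a gene of epithelial adhesion and apoptosis, was at 170, 171 and 157 TPM in the controls and at 73.0 and 73.0 TPM in the clones (log2 -1.12, FDR 0.010). *Ccng1*, a cyclin G gene, was at 354, 361 and 375 TPM in the controls and at 251 and 224 TPM in the clones (log2 -0.56, FDR 0.030). *Trp53* itself, the p53 gene, was at 630, 620 and 746 TPM in the controls and at 767 and 765 TPM in the clones and was not called (log2 0.26, FDR 0.25). Of 16 lysosome and autophagy genes the lysosomal genes *Lamp1* (log2 -0.50, FDR 0.045) and *Ctsd* (log2 -0.59, FDR 0.022) were called lower, also beside 2.94% on other autosomes, with a median of -0.26.

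Markers of other cell types also varied between the exonic clones. The keratin gene *Krt18*, a trophoblast marker, was at 1128, 1119 and 747 TPM in the controls and at 291 and 583 TPM in ΔE2.5 and ΔE2.7, and was not called (FDR 0.11). The mesendoderm gene *T* was at 119, 117 and 26.0 TPM in the controls and at 35.2 TPM in ΔE2.5 and 196 TPM in ΔE2.7. For *T* the clones lay on opposite sides of wt, and ΔP2.1 was below both. *Col4a1*, a basement membrane collagen gene of the primitive endoderm list, fell from 124, 119 and 123 TPM to 38.3 and 59.8 (log2 -1.25, FDR 0.026). Of 10 primitive endoderm markers it was the only one called by edgeR, and 0 markers were called in the trophoblast, formative and primed epiblast, mesendoderm and neural lists. At an unadjusted p under 0.05 the counts in these lists were 3, 0, 1 and 2, and DESeq2 called 2, 0, 0 and 2. None of 8 markers of a 2-cell-like state exceeded 1 TPM in a sample.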

How the data were processed

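RNA-seq of 12 F1 ES cell samples was used, and the 5 male CB samples entered the comparisons. The authors deposited estimated counts per gene for each sample, neither normalized nor pooled, obtained by mapping single-end reads to the BL6 genome (mm10) and to a pseudo-cast genome, with TopHat and bowtie (Bowtie2 2.2.5 in the submitters' processing notes), and by splitting reads with a SNP by allele. Unique mapping lowers genes with near-identical copies, and allelic counts hold only the part of the fragments that covers a SNP.

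Genes were placed by symbol with the GENCODE annotation of GRCm38, the same build (23310 of 24346 matched to 1 chromosome). TPM was computed from the deposited estimated counts, and positions of the clones above or below all controls in total level compare TPM without TMM. A gene had to exceed 1 TPM in any of the 5 CB samples (13801 genes did), and was tested on rounded counts with the edgeR 4.0.16 quasi-likelihood test (TMM, Benjamini-Hochberg, R 4.3.3, limma 3.58.1), and called at an FDR under 0.05. Log2 fold changes are from this fit, and "relative to other autosomes" means minus the median of autosomes 2 to 19. Allelic fits needed 20 SNP fragments, and the test between clones used samples as blocks. CPM medians per sample used log2(CPM + 0.5). DESeq2 1.42.0 was an alternative. Tables were processed with Python 3.11.15.

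Named genes were, among those with a mean of at least 10 TPM, the 8 called with the largest increase and up to 8 with the largest decrease with both clones on the same side of all controls, on chromosome 1 and on other autosomes, the 8 at control level with the narrowest interval, the 6 chromosome 1 genes with the most SNP fragments, *Kdm6a*, *Uty*, and in each list those highest in TPM or called. Some genes that this rule takes are not reported here. *Col5a2*, *Lmod1* and *Eif2s3y* were named after their values were seen. Members and lists were chosen with earlier results of these data known. The average of the wt samples and the replicate block were added after the data were seen.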

Additional observations from a re-analysis of the deposited data

Results flagged for a closer look

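In the edgeR fit of both alleles 142 chromosome 1 genes had an FDR under 0.05 for the allele balance between the 2 exonic clones, all with a higher BL6 to cast ratio in ΔE2.5. Each clone is 1 library and the spread came from the controls alone, with 0 genes without wt 1, without wt 2 or with both averaged, so the count compares these libraries and not replicated conditions. The male BC samples, which entered no comparison here, had a chromosome 1 share of at least 8.89% of autosomal fragments and a median BL6 share of chromosome 1 genes of at least 67.7%, in wt and KO samples. The female BC samples had 6.39% and 6.29% of autosomal fragments and BL6 shares of 48.5% and 48.4%. The male BC values were on the side of ΔE2.5 for both measures. These values were not tested.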

How the results depend on the processing

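The chromosome 1 median kept its direction under each alternative for which it was computed, which leaves out DESeq2, the 1.5-fold condition and the comparisons with wt alone and with ΔP2.1 alone. Left-out samples moved the count of chromosome 1 genes called higher between 0 and 295 and lower between 0 and 10, and on other autosomes between 1 and 500 and between 1 and 903, with a median change of 0.48 to 0.54. With wt averaged the counts were 0, 0, 1 and 2. All 12 samples in the variance gave 4 chromosome 1 genes lower and 279 higher and 678 lower elsewhere. DESeq2 gave 373 and 9 on chromosome 1 and 330 and 1026 elsewhere. Exonic clones against wt alone gave 10 lower on chromosome 1 and 499 and 904 elsewhere, and against ΔP2.1 alone 119 higher on chromosome 1 and 53 and 141 elsewhere. At 1.5-fold 59 were higher elsewhere. The BL6 share was 64.4% in ΔE2.5 and 31.2% in ΔE2.7 after division by the ratio of other autosomes, and 39.1% in ΔE2.7 over pooled fragments. The allele balance gave 0 genes with wt averaged and 0 to 550 with a control left out, and genes at control level were 25 at 30 TPM. Of 1262 values of 79 named called genes under the alternatives, 0 changed direction and 441 were no longer past the threshold. The cast median in ΔE2.5 was -0.11 to -0.051 with a control left out. The cause was not tested. With the replicate number as a block, added after the data were seen, 187 and 2 chromosome 1 genes were called higher and lower, 45 and 273 elsewhere, and the median was 0.52. ΔP2.1 had number 1. The wt samples and the exonic clones share only a number. No source gives them a common culture or day, and the deviations of same-numbered samples correlated at 0.013 over 13801 genes in the 2 pairs.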
